A study of Mus musculus with 15 samples.

Results

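Heat shock proteins and chaperones are proteins that help others fold, keep them from clumping, and pass those that cannot be rescued to degradation. The genes described here were taken from the count table by name and level: names beginning with Hsp, Dnaja, Dnajb, Dnajc, Cct and a digit, or Bag and a digit, together with Stip1, Chordc1, Ahsa1, Tcp1, Hsf1, Hsf2, Calr and Canx, at a mean of at least 1 CPM, the count scaled to the library's total, over the 15 libraries. Of 24419 genes in the table, 98 had such a name and 87 of those reached the level. Among the 11 that did not, 1 had no count in any library. Just inside the level stood Dnajb3 at a mean of 1.47 CPM, and just outside it Cct6b at 0.558 CPM.

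The libraries hold total RNA from punches of the suprachiasmatic nucleus (SCN), the paired hypothalamic nuclei that keep circadian time in mammals. Mice were 8 to 12 weeks old on a C57BL/6 background, and 2 to 4 punches were pooled into each library. Of the 15 libraries, 4 were from REV-ERB double knockout (DKO) mice at circadian time (CT) 16, 5 from control mice at CT16, 3 from DKO mice at CT4 and 3 from control mice at CT4. REV-ERB alpha and beta are nuclear receptors that repress transcription in the clock's feedback loop; CT16 lies in the subjective night and CT4 in the subjective day. How and in which cells the receptors were deleted, and what the controls carry, the labels leave unsaid. The comparisons ask how loss of REV-ERBs and time of day bear on SCN transcripts. The labels call each library a biological replicate, and p-values weigh group differences against the spread between these pools, not between single mice.

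Chaperones work in relays. HSP70 proteins bind unfolded stretches with the help of J proteins (the Dnaj genes), nucleotide exchange factors such as the BAG proteins release the bound chain, and co-chaperones hand some clients on to HSP90. The cytosolic ring chaperonin TRiC folds actin and tubulin, the endoplasmic reticulum (ER) has its own HSP70 and HSP90 together with lectin chaperones, and mitochondria have HSP60 with its lid HSP10. Heat shock factors raise the stress-inducible members through heat shock elements, and body temperature and feeding rhythms are known to drive daily cycles of such genes in mouse tissues.

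Libraries held 32580803 to 68757624 counts. Counts of the targeted genes summed over all exons were not lower in DKO: at CT16 Nr1d1 stood at 241 to 378 CPM in DKO and 135 to 150.3 CPM in control, and Nr1d2 at 198 to 259 CPM in DKO and 96.7 to 118 CPM in control. Sums over whole genes do not single out a deleted exon, so they check nothing about the genotype labels. All 11 SCN marker genes were detected. Summed markers of other cells differed between libraries: 8 myelin genes summed to 3801 to 19530 CPM in DKO at CT16, with replicate 4 highest, and to 2893 to 9503 CPM in control at CT16. The 11 peptide genes of neighbouring hypothalamic nuclei summed to 448.8 to 786.9 CPM in DKO at CT16, 751.5 to 1102 in control at CT16, 835.1 to 940.6 in DKO at CT4 and 459.1 to 806 in control at CT4. The astrocyte, microglia, endothelium and ependyma lists overlapped between genotypes at CT16, and no listed marker was at 0 in all libraries. SCN markers summed to 720.3 to 1151 CPM in DKO at CT16 and 463 to 973 in control at CT16. Control CT16 replicates 1, 3, 4 and 5 lay below every DKO library at CT16 and every library at CT4. Control CT16 replicate 2, at 973 CPM, lay within the DKO range. Within the SCN list, Rgs16 had 119.4 to 435.1 CPM in DKO and 45.21 to 62.18 in control at CT16. Rasl11b had 28.38 to 87.06 CPM in DKO and 7.808 to 15.62 in control at CT16. Every other gene of the list overlapped between genotypes at CT16, such as Six6 (26.3 to 53.74 and 23.78 to 43.84 CPM) and Zfhx3 (80.43 to 152.4 and 127.9 to 159 CPM). The sum is therefore no measure of SCN content by itself. The part of SCN markers in the differences below was not tested. Earlier work on these data saw 3 libraries stand apart in tissue markers, namely replicates 3 and 4 of DKO at CT16 with replicate 1 of control at CT4; counts are given below with and without them. In bulk punches, fewer cells of a type and less RNA per cell cannot be told apart.

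The 87 genes took up 1.36 ± 0.0788% of counts in DKO at CT16 (SD, n = 4), 1.485 ± 0.0465% in control at CT16 (n = 5), 1.326 ± 0.0327% in DKO at CT4 and 1.35 ± 0.0212% in control at CT4 (n = 3 each). At CT16 the DKO libraries spanned 1.244 to 1.427% and the control libraries 1.414 to 1.529%, with a narrow overlap. By level per length, in reads scaled to library total and exonic length (RPKM) averaged over all libraries, the constitutive HSP70 gene Hspa8 led with 809 RPKM, followed by the constitutive HSP90 gene Hsp90ab1 with 706 RPKM. The lectin chaperone Calr led the ER group at 193 RPKM, the subunit Cct5 led TRiC at 97.2 RPKM, and the vesicle-bound J protein gene Dnajc5 led the J proteins at 94.8 RPKM. Hspd1, which encodes HSP60, stood at 85.6 RPKM, the exchange factor and quality control gene Bag6 at 65.5 RPKM and Hsf1 at 32.9 RPKM. The stress-inducible Hspa1b was the lowest of the HSP70 group at 2.63 RPKM, and small heat shock proteins were low, from 4.41 RPKM for Hspb1 to 11.8 RPKM for Hspb8. Hspbap1 and Hspg2, which encodes the matrix proteoglycan perlecan and only shares the letters, were at 1.46 and 1.34 RPKM.

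**Figure D1:**
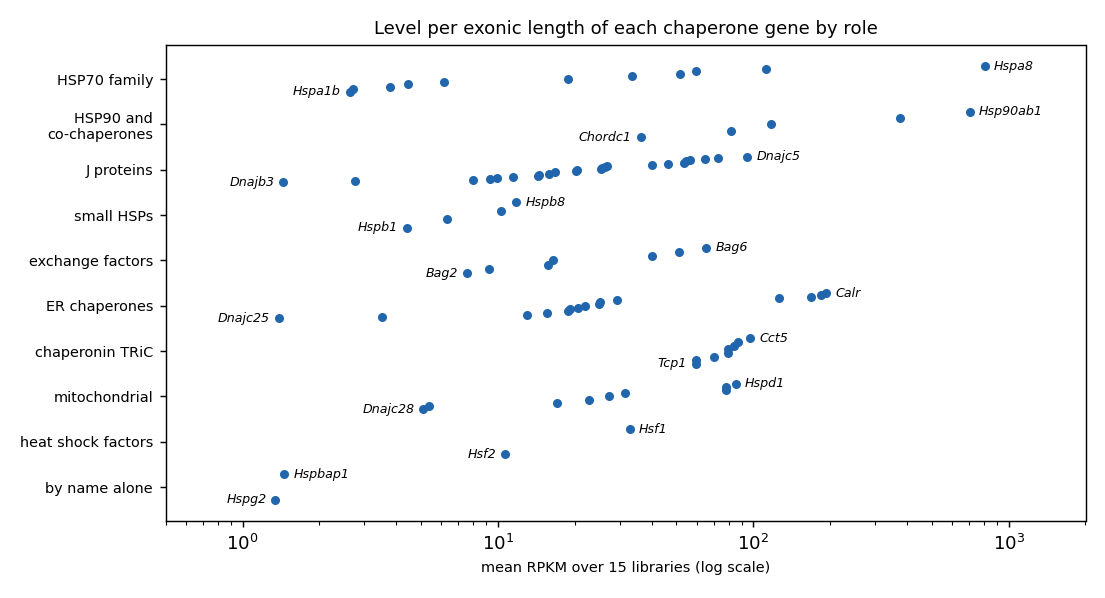
Mean RPKM (log axis) of each of the 87 chaperone genes over 15 libraries, one row of points per role, with the highest and lowest gene of each role named. Hspa8 at 809 and Hsp90ab1 at 706 RPKM stand at the right, and the inducible Hspa1b at 2.63 RPKM stands near the left.

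At CT16, 12 chaperone genes of the cytosol and ER were lower in DKO and 75 of the 87 did not pass. Of the 87 genes, 12 fell and none rose (edgeR quasi-likelihood test, adjusted p under 0.05), where 1.83% of the 16910 genes tested fell and 2.83% rose. The 12 were the inducible HSP70 genes Hspa1a and Hspa1b, the HSP110 gene Hsph1, the HSP90 gene Hsp90ab1 and its co-chaperones Stip1 and Chordc1, the ER chaperones Hspa5, Hsp90b1 and Calr, the J protein gene Dnaja1, the TRiC subunit Cct7 and the small heat shock protein Hspb1. The median log2 fold change was -0.08 over the 87 genes and 0.00 over all genes tested, with 64 of the 87 below 0. In 11 of the 12 genes no DKO library reached the lowest control library, and Chordc1 was the exception. The 12 were picked by a test on these same libraries, so this separation is not further evidence. Its share over all genes tested was not counted.

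**Figure D2:**
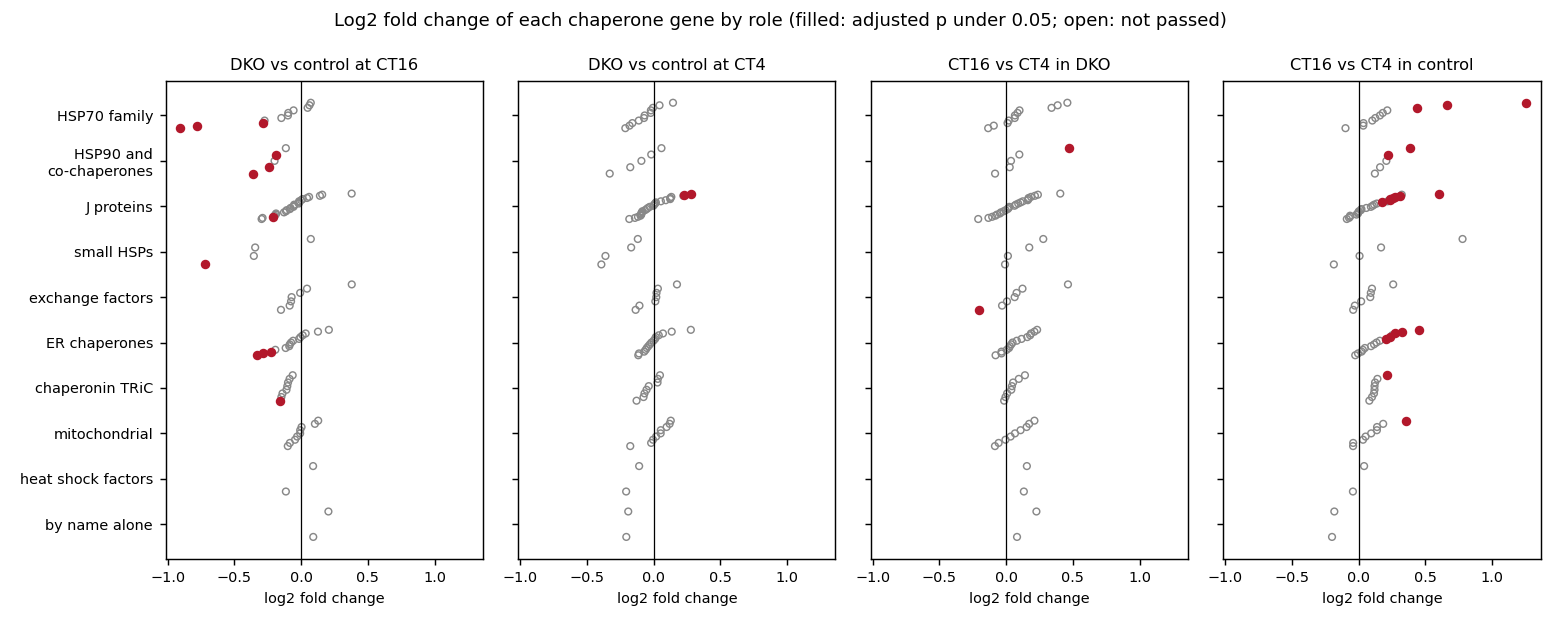
Log2 fold change (x axis) of each of the 87 genes in 4 comparisons, one panel each, with a row per role; filled points passed adjusted p under 0.05 and open points did not. In DKO over control at CT16 the 12 filled points all lie below 0, and in CT16 over CT4 in control the 19 filled points all lie above 0.

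In the HSP70 group, the 2 inducible genes had the largest falls of the 12. Hspa1b, which encodes a stress-inducible cytosolic HSP70, had 7.51, 5.99, 7.59 and 3.56 CPM in DKO libraries at CT16, against 12.3, 13.8, 10.3, 10.9 and 10.7 CPM in control libraries at CT16. The highest DKO library lay below the lowest control library, and the log2 difference was -0.91 ± 0.18, adjusted p = 0.00874. Its neighbour Hspa1a had 9.51, 8.07, 10.1 and 5.48 CPM in DKO libraries and 11.7, 14.3, 15.4, 15.4 and 14.4 CPM in control libraries. Again the groups were apart, by -0.78 ± 0.16 on the log2 scale (adjusted p = 0.00864), and DKO replicate 4 was the lowest library for both genes. Of the 50-base stretches of the Hspa1b transcript, 62.3% also occur in that of Hspa1a, and 58.8% the other way round, so how counts were split between the pair is uncertain, as is whether reads fitting both were kept. Their sum was 14.44 ± 3.93 CPM in DKO at CT16 (SD, n = 4), 25.88 ± 1.54 in control at CT16 (n = 5), 13.38 ± 0.957 in DKO at CT4 and 13.89 ± 1.98 in control at CT4 (n = 3 each). Thus the control libraries at CT16, at 24.05 to 28.18 CPM, stood above all others, which lay between 9.036 and 17.64 CPM.

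The upstream bases of Hspa1a are shown because the inducible HSP70 genes had the largest difference. RefSeq (GRCm38.p6, the build called mm10) places the 250 bases before its start at chr17:34972157-34972406 on the minus strand, and those of Hspa1b at chr17:34959239-34959488 match them at 247 of 250 positions. Capitals mark the one heat shock element core, GAANNTTC or TTCNNGAA searched on both strands, where N is any base:
Hspa1a: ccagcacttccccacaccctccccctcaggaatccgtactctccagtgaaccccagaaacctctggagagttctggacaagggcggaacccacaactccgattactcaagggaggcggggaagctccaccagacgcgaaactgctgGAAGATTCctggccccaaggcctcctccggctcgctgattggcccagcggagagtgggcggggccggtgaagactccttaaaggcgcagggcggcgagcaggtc

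Hsph1, an HSP110 protein that acts as an exchange factor of HSP70, had 410.3, 361, 383 and 301 CPM in DKO libraries at CT16 and 428, 411, 461, 461 and 461 CPM in control libraries at CT16. The top DKO library was just under the lowest control library (-0.29 ± 0.07, adjusted p = 0.0315). Hspa8 did not pass, at 1819, 1817, 1712 and 1336 CPM in DKO libraries and 1924, 1595, 1990, 1828 and 1919 CPM in control libraries (-0.15 ± 0.08, adjusted p = 0.337); its lowest library was again DKO replicate 4. Hspa2, an HSP70 gene best known from the testis, also missed the threshold (-0.27 ± 0.08, adjusted p = 0.08). Of the 11 genes in the HSP70 group, 3 fell and 8 did not pass, with log2 differences from -0.91 to 0.07.

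HSP90 and its co-chaperones showed 3 falls among 5 genes, and all 5 log2 differences were below 0. Stip1, the adaptor that carries clients from HSP70 to HSP90, had 247, 239, 221 and 208 CPM in DKO libraries at CT16, against 299, 267, 295, 303 and 306 CPM in control libraries at CT16. The groups did not overlap, and Stip1 had the lowest adjusted p of the 87 genes here (-0.36 ± 0.05, adjusted p = 0.000517). Hsp90ab1, the constitutive cytosolic HSP90, had 1728, 1640, 1693 and 1610 CPM in DKO libraries and 1867, 1801, 1930, 1927 and 1952 CPM in control libraries. Its groups were apart by a small step (-0.18 ± 0.04, adjusted p = 0.0148). Chordc1, a co-chaperone that binds HSP90, had 92.02, 85.2, 76.1 and 70.3 CPM in DKO libraries and 94.4, 95.9, 99.04, 91 and 97.6 CPM in control libraries, where the highest DKO library lay within the control range (-0.24 ± 0.07, adjusted p = 0.0488). The inducible form Hsp90aa1 had 965 to 1122 CPM in DKO and 1061 to 1180 CPM in control and did not pass (-0.11 ± 0.05, adjusted p = 0.211).

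Of the 15 ER chaperones, 3 fell, and these were among the most abundant of the group. Hspa5, the ER HSP70 known as BiP, had 488, 396, 441 and 368 CPM in DKO libraries at CT16, against 520.2, 528, 531, 507 and 574 CPM in control libraries at CT16. No DKO library reached the control range (-0.33 ± 0.07, adjusted p = 0.013). Calr, the lectin chaperone calreticulin, had 370, 363, 341 and 329 CPM in DKO libraries and 441, 386, 438, 439.5 and 432 CPM in control libraries, again without overlap (-0.29 ± 0.05, adjusted p = 0.00182). Hsp90b1, the ER HSP90 known as GRP94, had 504, 487, 468 and 472 CPM in DKO libraries and 558, 550.3, 549, 572 and 595 CPM in control libraries. It too was lower in every DKO library (-0.23 ± 0.04, adjusted p = 0.00517). The BiP partner gene Dnajb11 did not pass (-0.19 ± 0.06, adjusted p = 0.076), and the 12 ER genes that did not pass reached up to 0.21 on the log2 scale.

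Hspa5, Calr and Hsp90b1 share a motif in the window of 250 bases before to 50 after the start, and their upstream bases are printed to show it. It is the ER stress element, in which a CCAAT box and a CCACG block stand a fixed distance apart on either strand, known as a site of the unfolded protein response. The 250 bases before the start lie at chr2:34771840-34772089 on the plus strand for Hspa5, chr8:84846932-84847181 on the minus strand for Calr and chr10:86705445-86705694 on the minus strand for Hsp90b1. Capitals mark the element, of which Hsp90b1 has 2 matches:
Hspa5: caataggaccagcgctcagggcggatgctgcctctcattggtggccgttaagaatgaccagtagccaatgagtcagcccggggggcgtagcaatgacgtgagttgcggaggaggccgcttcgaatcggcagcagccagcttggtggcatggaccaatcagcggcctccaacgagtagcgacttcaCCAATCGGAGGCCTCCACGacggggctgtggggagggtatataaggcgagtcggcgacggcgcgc
Calr: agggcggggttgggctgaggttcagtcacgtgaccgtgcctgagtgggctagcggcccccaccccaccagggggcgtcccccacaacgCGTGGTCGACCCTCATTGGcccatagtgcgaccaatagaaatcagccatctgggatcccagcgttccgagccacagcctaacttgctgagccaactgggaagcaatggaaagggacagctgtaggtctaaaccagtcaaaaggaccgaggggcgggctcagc
Hsp90b1: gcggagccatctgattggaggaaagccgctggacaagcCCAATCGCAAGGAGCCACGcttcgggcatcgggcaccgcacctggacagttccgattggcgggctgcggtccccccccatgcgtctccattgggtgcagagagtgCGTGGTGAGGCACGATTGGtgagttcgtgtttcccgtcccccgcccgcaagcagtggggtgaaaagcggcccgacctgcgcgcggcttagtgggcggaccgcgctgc

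Over all genes with a RefSeq window, the ER stress element was found in 37 of 27025, or 0.137%. Among the 73 chaperone genes with a window it was found in 5, or 6.85%: Hspa5, Calr, Hsp90b1, the calnexin gene Canx and Dnajc3. Of 11 genes with a window that fell in DKO at CT16, 3 had it, and of 18 with a window that were higher at CT16 than CT4 in control, 4 had it. The match describes letters in these windows and was not read as a bound site.

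Other roles gave 1 fall or none. Dnaja1, a J protein of the cytosol, had 244, 223, 223 and 206 CPM in DKO libraries at CT16 and 254, 252, 278, 251 and 262 CPM in control libraries at CT16, with no overlap (-0.21 ± 0.05, adjusted p = 0.0256). On the annotation, 26% of the exonic length of Dnaja1 lies opposite exons of Smu1; whether reads were counted by strand is not stated. It was the one fall among 24 J proteins, whose log2 differences ran from -0.30 to 0.38; the inducible Dnajb1 missed the threshold (-0.29 ± 0.09, adjusted p = 0.0755). In TRiC all 8 subunits were below 0, from -0.16 to -0.06, and 1 passed. That subunit, Cct7, had 204, 200.4, 203 and 185 CPM in DKO libraries and 217, 206, 227, 227 and 225 CPM in control libraries, with a narrow gap between the nearest libraries and 8.73% of its exonic length opposite Pradc1 (-0.16 ± 0.04, adjusted p = 0.0405). Cct5, the most abundant subunit per length, did not pass (-0.10 ± 0.04, adjusted p = 0.21).

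Hspb1, the small heat shock protein HSP27, had 3.41, 3.48, 3.28 and 3.23 CPM in DKO libraries at CT16 and 5.96, 5.85, 5.21, 3.94 and 6.76 CPM in control libraries at CT16. The DKO libraries were close together and all under the control range (-0.72 ± 0.20, adjusted p = 0.0477), on 90 to 308 counts per library over the study. Its relative Hspb8 overlapped between groups (-0.35 ± 0.18, adjusted p = 0.306). No mitochondrial chaperone of 9 passed, and none of the 7 genes grouped as exchange factors. Hsph1, which also acts as an exchange factor, was counted in the HSP70 group and fell. Hspd1 stood at -0.03 ± 0.06, adjusted p = 0.817, Bag1 at -0.15 ± 0.04, adjusted p = 0.0647 and Bag6 at -0.07 ± 0.04, adjusted p = 0.324. Neither heat shock factor passed: Hsf1, the main activator of the heat shock response, had 66.7, 66.6, 59.6 and 67.2 CPM in DKO libraries and 74.1, 66.6, 71.1, 72.9 and 67.3 CPM in control libraries (-0.11 ± 0.05, adjusted p = 0.236). Hsf2 stood at 0.09 ± 0.06, adjusted p = 0.436. Perlecan's gene Hspg2 (0.09 ± 0.11, adjusted p = 0.686) and Hspbap1 (0.20 ± 0.10, adjusted p = 0.277), taken in by name alone, were above 0.

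**Figure D3:**
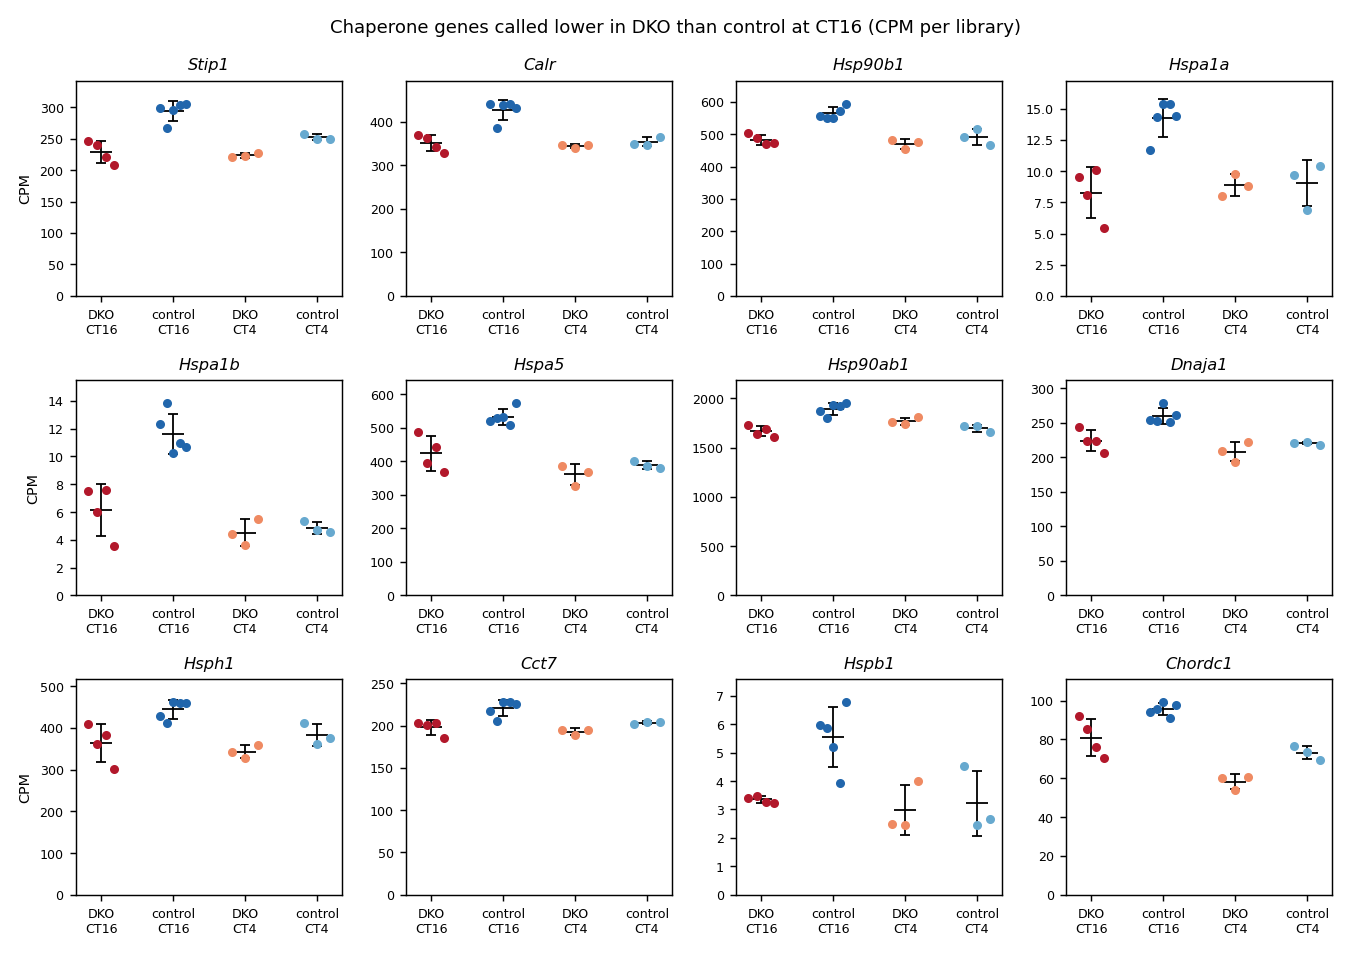
CPM per library (points, y axis from 0) of the 12 genes that fell in DKO at CT16, with the mean and SD (bars), in DKO and control at CT16 and then at CT4. For Hspa1b the 5 control libraries at CT16 lie between 10.3 and 13.9 CPM, above the 4 DKO libraries at CT16 and all 6 libraries at CT4.

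The count of 12 fell to 5 without DKO CT16 replicate 2, and to 7 without DKO CT16 replicate 4 or without control CT16 replicate 3. Without the 3 libraries that stand apart, 5 genes fell and 1 rose, Bag3. Those that fell were Hspa2, which is not of the 12, with Stip1, Calr, Hspa1a and Hspa1b. The rest of the 12, Hspa5, Hsp90b1 and Hsp90ab1 among them, did not pass in that setting. Stip1, Calr, Hspa1a and Hspa1b passed in all 25 alternatives run. With the myelin and neighbouring nuclei scores of each library in the model, 19 genes fell and none rose, and all 12 were among them. For summed markers of neighbouring nuclei, 3 of the 4 DKO libraries lay below all control libraries at CT16, and DKO replicate 3 lay within their range.

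In control mice, 19 chaperone genes were higher in the subjective night and 68 of the 87 did not pass. At CT16 relative to CT4, 19 of the 87 genes rose and none fell, where 2.13% of all genes tested rose and 2.08% fell. The median log2 fold change was 0.12 over the 87 genes and -0.01 over all genes, with 69 of the 87 above 0. The 19 took in 7 J proteins, 5 ER chaperones, 3 HSP70 genes, 2 HSP90 co-chaperones, 1 TRiC subunit and the mitochondrial Hspe1. In each of the 19, every control library at CT16 was above every control library at CT4. These genes too were picked by a test on the same libraries, so the separation is not further evidence. Its share over all genes tested was not counted. This comparison and that of genotype at CT16 share the 5 control libraries at CT16, so their values stand side by side here and are not independent; 8 genes passed in both, Calr, Chordc1, Dnaja1, Hsp90b1, Hspa1a, Hspa1b, Hspa5 and Stip1, which are 66.7% of the 12 and 42.1% of the 19.

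The largest rise was that of Hspa1b. It had 12.3, 13.8, 10.3, 10.9 and 10.7 CPM in control libraries at CT16, against 5.36, 4.68 and 4.56 CPM in control libraries at CT4. The libraries were 2.38-fold apart with no overlap (1.25 ± 0.21, adjusted p = 0.00344). Hspa1a had 11.7, 14.3, 15.4, 15.4 and 14.4 CPM in control libraries at CT16, and 9.72, 6.92 and 10.4 CPM in control libraries at CT4 (0.66 ± 0.17, adjusted p = 0.0427). Hspa2 also rose (0.43 ± 0.09, adjusted p = 0.0166), with 56.2 to 69.1 CPM in control at CT16 and 42.2 to 47.9 CPM in control at CT4. Hspa8, far more abundant, did not pass (0.18 ± 0.09, adjusted p = 0.288).

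Among J proteins the clearest was Dnajb1, the stress-inducible HSP40 that works with HSP70. It had 111, 105, 112, 98.1 and 87.7 CPM in control libraries at CT16, against 63.1, 71.1 and 68.7 CPM in control libraries at CT4. Each control library at CT16 was above those at CT4, by 0.60 ± 0.10 on the log2 scale (adjusted p = 0.00315). The related Dnajb5 (0.31) and Dnajb4 (0.26), the aggregation-suppressing Dnajb6 (0.23), the splicing-associated Dnajc8 (0.27), Dnaja1 (0.24) and the HSP70 and HSP90 adaptor Dnajc7 (0.17) rose by smaller log2 steps. Adjusted p-values for these 6 ran from 0.00967 for Dnajb6 to 0.0431 for Dnajc7. The other 17 J proteins did not pass; Dnajc5 stood at 0.14 ± 0.06, adjusted p = 0.202.

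ER chaperones rose in 5 of 15 genes. Hspa5 had 520.2, 528, 531, 507 and 574 CPM in control libraries at CT16, against 401, 386 and 379.9 CPM in control libraries at CT4, which were clearly apart (0.45 ± 0.08, adjusted p = 0.00442). Its J protein partners Dnajb11 (0.33 ± 0.07, adjusted p = 0.00967) and Dnajc3 (0.23 ± 0.05, adjusted p = 0.0216) rose as well. Calr (0.27 ± 0.05, adjusted p = 0.00821) and Hsp90b1 (0.20 ± 0.05, adjusted p = 0.0218) completed the group. Calr had 386 to 441 CPM in control at CT16 and 346 to 365 CPM in control at CT4.

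Of the HSP90 group, Chordc1 (0.38 ± 0.07, adjusted p = 0.00783) and Stip1 (0.22 ± 0.06, adjusted p = 0.0374) rose, while Hsp90ab1 (0.16 ± 0.04, adjusted p = 0.0547) and Hsp90aa1 (0.12 ± 0.05, adjusted p = 0.227) did not pass. All 8 TRiC subunits were above 0, from 0.08 to 0.21, and Cct4 passed (0.21 ± 0.06, adjusted p = 0.0425). Hspe1, the HSP10 lid of the mitochondrial chaperonin, rose (0.36 ± 0.09, adjusted p = 0.0295), with 64.7, 58.01, 70.9, 65.04 and 71.4 CPM in control libraries at CT16 and 50.9, 52.8 and 50.98 CPM in control libraries at CT4. Its partner Hspd1, which shares a promoter region with it, had 199 to 224 CPM in control at CT16 and 183 to 189 CPM in control at CT4 and did not pass (0.18 ± 0.06, adjusted p = 0.119). Hspb1 reached 0.78 ± 0.22, adjusted p = 0.0585. The heat shock factor genes did not pass, Hsf1 at 0.04 ± 0.06, adjusted p = 0.741 and Hsf2 at -0.04 ± 0.07, adjusted p = 0.761.

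**Figure D4:**
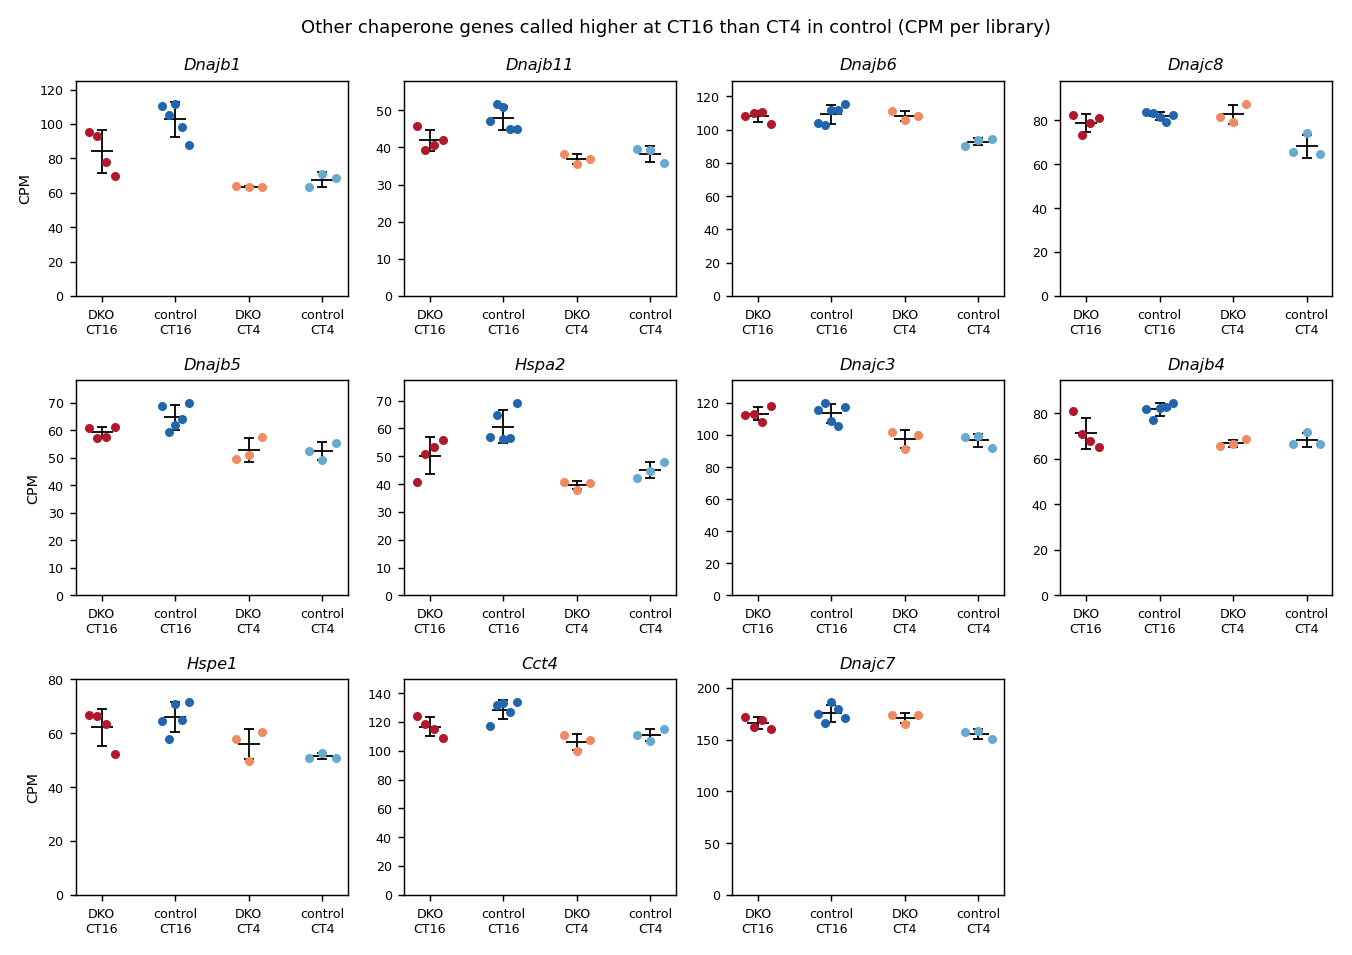
CPM per library (points, y axis from 0) of the 11 genes that rose at CT16 relative to CT4 in control and did not pass between genotypes at CT16, with the mean and SD (bars). For Dnajb1 the control libraries at CT16 lie between 87.7 and 112 CPM and those at CT4 between 63.1 and 71.1 CPM.

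The count of 19 fell to 7, 8 and 8 without control CT4 replicate 1, 2 and 3 in turn, to 12 without control CT16 replicate 3 and to 11 without control CT16 replicate 5. Without the 3 libraries that stand apart it was 19, of which 16 were among the 19, and Chordc1, Dnajb1, Hspa1b and Hspa5 passed in all 25 alternatives. Summed microglia markers stood at 186.9 to 215.2 CPM in control at CT16 and 221.3 to 269.5 CPM in control at CT4. Endothelium markers stood at 108 to 136.4 and 149.1 to 168.6 CPM in the same groups, and neither list overlapped. The part of these 2 lists in the rises was not tested. The fit with tissue scores held only the myelin and neighbouring nuclei scores, and had 25 rises, the 19 among them.

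At CT4, 85 of the 87 genes did not pass between genotypes. Of the 87 genes, 2 rose in DKO and none fell, where 0.574% of all genes tested rose and 0.71% fell; the median log2 difference was -0.03 over the 87 genes and -0.0023 over all genes. Other fits called falls as well: limma voom had 2 rises and 4 falls, with Dnajb2, Hsf1, Stip1 and Chordc1 lower, DESeq2 had 2 rises and 1 fall, Chordc1, and the fit of only the groups compared had 2 rises and 3 falls, with Dnajb2, Stip1 and Chordc1 lower. Dnajc8, a J protein found with the spliceosome, had 81.3, 79.1 and 87.5 CPM in DKO libraries at CT4, against 65.3, 74.3 and 64.5 CPM in control libraries at CT4. All 3 DKO libraries were higher (0.28 ± 0.06, adjusted p = 0.0392). Dnajb6, a J protein that keeps polyglutamine proteins from aggregating, had 111, 106 and 108 CPM in DKO libraries and 90.2, 93.6 and 94.6 CPM in control libraries, without overlap (0.22 ± 0.05, adjusted p = 0.0478).

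Both genes also rose with time in control, a comparison that shares the control libraries at CT4. Those 3 libraries were the lowest of the study for Dnajb6, and for Dnajc8 they were the lowest apart from DKO CT16 replicate 2, which lay under control CT4 replicate 2. Dnajc8 had 82.1, 73.2, 78.6 and 81.03 CPM in DKO libraries at CT16 and 83.9, 83.3, 81.3, 79.1 and 82.2 CPM in control libraries at CT16, and Dnajb6 had 103 to 111 and 103 to 116 CPM in the same 2 groups. With the edgeR test, the 12 genes that fell at CT16 did not pass at CT4, where Hspa1a stood at -0.02 ± 0.19, adjusted p = 0.974 and Hspa1b at -0.11 ± 0.23, adjusted p = 0.875. The nearest of the 12 to the threshold was Chordc1, with 60.1, 54.03 and 60.8 CPM in DKO libraries at CT4 and 76.6, 73.6 and 69.5 CPM in control libraries at CT4 (-0.33 ± 0.08, adjusted p = 0.0583); the groups did not overlap, and it passed with DESeq2 (adjusted p = 0.015), limma voom (0.0118) and only the groups compared (0.00936). Stip1 had 221, 222 and 227 CPM in DKO libraries at CT4 and 258, 250 and 249 CPM in control libraries at CT4, which did not overlap and did not pass (-0.18 ± 0.06, adjusted p = 0.191), although it passed with limma voom (adjusted p = 0.0404) and with only the groups compared (0.0331). Hsf1 likewise had no overlap and did not pass, at 55.1, 63.8 and 59.03 CPM in DKO and 69.5, 67.6 and 68.3 CPM in control (-0.21 ± 0.06, adjusted p = 0.133); it passed with limma voom (adjusted p = 0.0343). The count of 2 was 0 without any one of DKO CT4 replicates 1 to 3, control CT4 replicates 1 and 3 and control CT16 replicates 1 and 3, and 1 without control CT4 replicate 2, DKO CT16 replicate 2 or control CT16 replicate 4. Without the 3 libraries that stand apart, neither passed and Chordc1 fell (-0.30, adjusted p = 0.0205). Summed markers of 5 lists did not overlap between genotypes at CT4. Neighbouring nuclei stood at 835.1 to 940.6 CPM in DKO and 459.1 to 806 in control, and ependyma at 118.8 to 158.3 in DKO and 87.59 to 113.1 in control. The SCN list stood at 820.5 to 873.7 CPM in DKO and 922 to 1076 in control, astrocytes at 2987 to 3083 in DKO and 3273 to 3422 in control, and endothelium at 138.2 to 144.7 in DKO and 149.1 to 168.6 in control. With myelin and neighbouring nuclei scores in the model the same 2 genes passed; the part of the other lists was not tested.

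In DKO mice, 1 of the 87 genes rose and 1 fell at CT16 relative to CT4, where 1.29% of all genes tested rose and 0.509% fell. The median log2 fold change was 0.06 over the 87 genes and 0.01 over all genes, with 64 of the 87 above 0. Chordc1 had 92.02, 85.2, 76.1 and 70.3 CPM in DKO libraries at CT16, against 60.1, 54.03 and 60.8 CPM in DKO libraries at CT4. Every DKO library at CT16 was above those at CT4 (0.47 ± 0.08, adjusted p = 0.00376). Bag1, an exchange factor of HSP70, had 67.1, 62.4, 61.9 and 60.3 CPM in DKO libraries at CT16 and 70.4, 72.5 and 74.8 CPM in DKO libraries at CT4, and was lower at CT16 in each (-0.21 ± 0.05, adjusted p = 0.0492). Dnajb1 had 69.7 to 95.1 CPM in DKO at CT16 and 63.2 to 63.7 CPM in DKO at CT4, and just missed the threshold (0.41 ± 0.10, adjusted p = 0.0525). It passed with DESeq2 (adjusted p = 0.00858), limma voom (0.00623), a stricter filter on low counts (0.0462) and a replicate block (0.0144). Dnajb1 also passed without the 3 libraries that stand apart (adjusted p = 0.000805). Hspa1b (0.46 ± 0.21, adjusted p = 0.267), Hspa1a (-0.09 ± 0.18, adjusted p = 0.824), Hspa5 (0.23 ± 0.08, adjusted p = 0.147) and Calr (0.03 ± 0.05, adjusted p = 0.83) did not pass. Of these, Hspa5 passed without the 3 libraries that stand apart (adjusted p = 0.0468).

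The count of 2 was 6 without DKO CT16 replicate 3, and 6, all rises, without the 3 libraries that stand apart. It was 1 without any one of DKO CT4 replicates 1 to 3, control CT4 replicates 1 to 3, DKO CT16 replicate 2 and control CT16 replicates 1, 3 and 4; Chordc1 passed in 24 of 25 alternatives and Bag1 in 9. Markers of neighbouring nuclei (448.8 to 786.9 CPM in DKO at CT16 and 835.1 to 940.6 in DKO at CT4) and of endothelium (116.6 to 127.9 and 138.2 to 144.7 CPM in the same groups) did not overlap. With myelin and neighbouring nuclei scores in the model 3 genes passed, these 2 among them; the part of endothelium was not tested.

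Whether the change with time itself differed between genotypes was tested as an interaction. None of the 87 genes passed with edgeR, against 0.0118% (2 of 16910) of all genes tested; at an unadjusted p under 0.05 there were 15, and DESeq2 and limma voom each called 3, all with a negative term: Hsp90ab1 and Dnajc8 in both, with Dnajb6 in DESeq2 and Dnajc7 in limma voom. Dnajc8 was at -0.34 ± 0.08, adjusted p = 0.108, Hsp90ab1 at -0.24 ± 0.06, adjusted p = 0.138 and Dnajb6 at -0.24 ± 0.07, adjusted p = 0.145. Calr was at -0.25 ± 0.08, adjusted p = 0.166, Hspa1a at -0.76 ± 0.25, adjusted p = 0.187 and Hspa1b at -0.80 ± 0.29, adjusted p = 0.229. With edgeR, the falls at CT16 are therefore not shown to differ from the values at CT4. Nor are the rises in control shown by that fit to differ from the values in DKO. For Hsp90ab1 among the falls, and for Dnajc8, Dnajb6 and Dnajc7 among the rises, the outcome depended on the fit. Both heat shock factors were above 0 in this term, at 0.09 for Hsf1 and 0.20 for Hsf2, and neither passed. Without the 3 libraries that stand apart none of the 87 passed the interaction either.

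The remaining 63 genes passed in no comparison with edgeR on all libraries. Their log2 differences between genotypes at CT16 ran from -0.35 for Hspb8 to 0.38 for Bag3, a co-chaperone of selective autophagy, and at CT4 from -0.39 for Hspb11, a protein of cilia transport despite its name, to 0.28 for the ER-resident Dnajc25. With time in control they ran from -0.20 for Hspg2 to 0.32 for Dnajc21, a J protein of ribosome assembly. With time in DKO they ran from -0.21 for Dnajb3 to 0.46 for Bag3. Bag3 had 33.7, 30.9, 20.5 and 35.2 CPM in DKO libraries at CT16, 24.8, 21.9, 22.1, 22.4 and 24.3 CPM in control libraries at CT16, 21.3, 23.2 and 20.9 CPM in DKO libraries at CT4 and 20.9, 17.4 and 19.7 CPM in control libraries at CT4. At CT16 DKO replicates 1, 2 and 4 lay above every control library and DKO replicate 3 below them all. BAG3 cooperates with HSP70 and HSPB8, and of the genes with an adjusted p between 0.05 and 0.1 between genotypes at CT16 Bag3 alone was above 0 (0.38 ± 0.12, adjusted p = 0.0854). It passed there with DESeq2 (adjusted p = 0.0363), limma voom (0.0447) and without the 3 libraries that stand apart (0.00245), and with time in DKO under the same 3 settings (0.0309, 0.0294 and 0.00155). Dnaja4, Hspa12b, Canx, Ahsa1 and Dnajc21 were also among those that passed under at least 1 other fit.

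Genes of the same pathways with other names were counted as a list of 37. Of these genes for HSP90 partners, prefoldin, ubiquitin, collagen folding and the ER stress response, 8 fell in DKO at CT16 and none rose, where 1.83% of all genes tested fell and 2.83% rose; the median was -0.09 beside 0.00 over all genes tested. Without the 3 libraries that stand apart 4 fell and 1 rose, and without DKO CT16 replicate 2 alone 5 fell. Fkbp4, an immunophilin of the HSP90 steroid receptor complex, had 219, 187, 190.3 and 177 CPM in DKO libraries at CT16, against 246, 223, 251, 245 and 253 CPM in control libraries at CT16. No DKO library reached the lowest control library (-0.33 ± 0.06, adjusted p = 0.00285). The disulfide isomerase genes Pdia6 (-0.32 ± 0.06, adjusted p = 0.00398) and Pdia3 (-0.19 ± 0.04, adjusted p = 0.0177), the BiP exchange factor gene Hyou1 (-0.31 ± 0.06, adjusted p = 0.00541) and the ER stress-inducible Sdf2l1 (-0.47 ± 0.09, adjusted p = 0.00528) fell too. Xbp1, whose product is a transcription factor of the unfolded protein response, had 105, 95.8, 85.2 and 90.7 CPM in DKO libraries and 116, 124, 114, 108 and 109.5 CPM in control libraries, without overlap (-0.28 ± 0.06, adjusted p = 0.0127). The collagen chaperone Serpinh1 (-0.28 ± 0.08, adjusted p = 0.0477) and Cacybp (-0.21 ± 0.06, adjusted p = 0.0411) completed the 8. The other 29 did not pass and went both ways. Among their ER stress genes, Herpud1 (0.17 ± 0.05, adjusted p = 0.0826) and Atf6 (0.13 ± 0.06, adjusted p = 0.245) were above 0. Creld2 (-0.28 ± 0.08, adjusted p = 0.0556) and Manf (-0.24 ± 0.08, adjusted p = 0.0812) were below it.

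In control, 15 of the 37 rose at CT16 relative to CT4 and none fell, where 2.13% of all genes tested rose and 2.08% fell; the median was 0.16 beside -0.01 over all genes tested. Without the 3 libraries 14 rose, without control CT4 replicate 1 alone 8 and without control CT4 replicate 2 alone 6. They were the 8 above together with the ER stress genes Creld2 (0.59 ± 0.09, adjusted p = 0.00153), Pdia4 (0.36), Herpud1 (0.30) and Manf (0.39), the HSP90 partners Ptges3 (0.26) and Fkbp5 (1.00), and Ubb (0.24). Sdf2l1 had 21.5, 19.1, 19.9, 17.1 and 20.8 CPM in control libraries at CT16 and 13.3, 11.01 and 11.9 CPM in control libraries at CT4 (0.70 ± 0.10, adjusted p = 0.00112). In DKO 4 of the 37 rose with time and none fell, where 1.29% of all genes tested rose and 0.509% fell: Herpud1 (0.39 ± 0.06, adjusted p = 0.00298), Sdf2l1 (0.48 ± 0.10, adjusted p = 0.0278), Manf (0.36 ± 0.09, adjusted p = 0.0481) and Fkbp5, which is also known as a glucocorticoid-induced gene (0.86 ± 0.18, adjusted p = 0.0293). Without the 3 libraries 7 rose, and without DKO CT16 replicate 1 or any one of DKO CT4 replicates 1 to 3 there was 1. None passed at CT4 between genotypes with edgeR, where the median was 0.00 and 0.574% of all genes tested rose and 0.71% fell, and none in the interaction, where DESeq2 and limma voom each called 1.

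**Figure D5:**
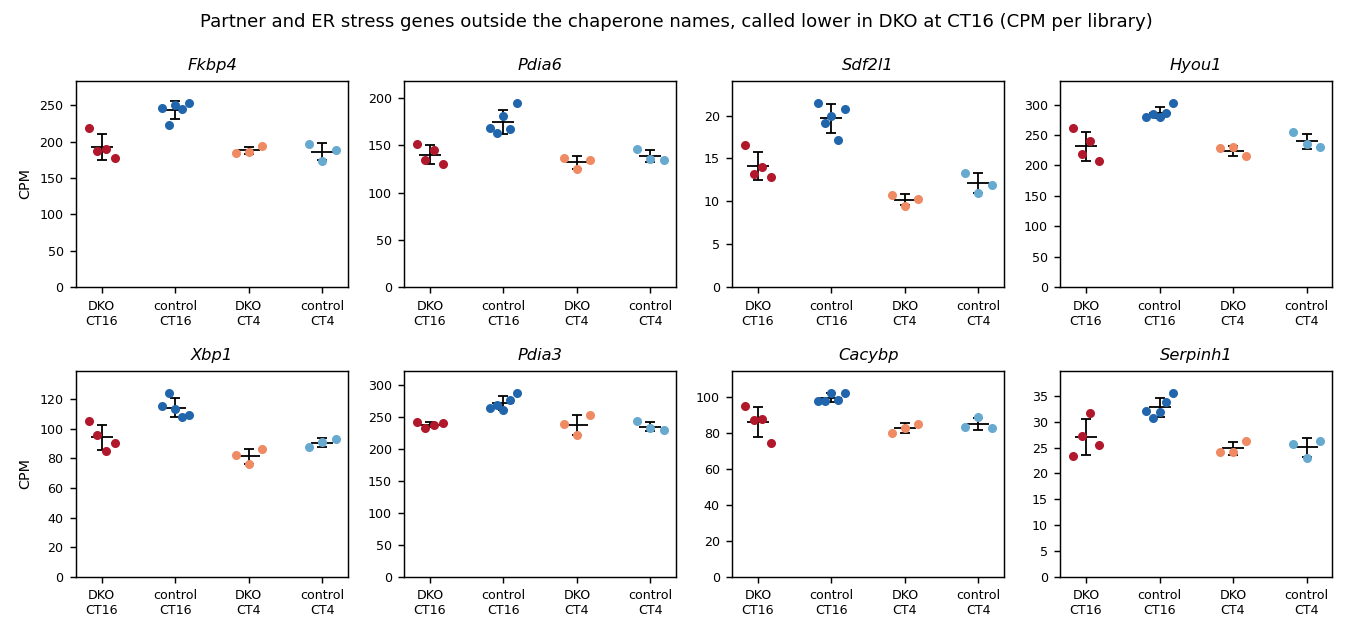
CPM per library (points, y axis from 0) of the 8 partner and ER stress genes that fell in DKO at CT16, with the mean and SD (bars), in DKO and control at CT16 and then at CT4. For Xbp1 the 5 control libraries at CT16 lie between 108 and 124 CPM and the 4 DKO libraries at CT16 between 85.2 and 105 CPM.

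Heat shock elements were searched in the same RefSeq windows. The core was found in 19 of 73 chaperone genes with a window (26%) and in 17% of all 27025 genes; it was present in 6 of 11 genes that fell in DKO at CT16 and in 7 of 18 that rose with time in control. The longer element of 3 units, which alternates GAA and TTC blocks set 2 bases apart and so contains the core, was found in 5 of 73 (6.85%) and in 0.662% of all genes. Those 5 were Chordc1, Dnajb6, Hsph1, Hspd1 and Hspe1, of which Hsph1 and Chordc1 fell in DKO at CT16 and Chordc1, Dnajb6 and Hspe1 rose with time in control. Stretches of 30 bases around them are shown, with the element and adjoining units in capitals, from chr9:18292260-18292289 (plus strand), chr5:29735844-29735873 (plus), chr5:149636287-149636316 (minus) and chr1:55088053-55088082 (plus). The last lies between Hspe1 and Hspd1, which are read in opposite directions from it:
Chordc1: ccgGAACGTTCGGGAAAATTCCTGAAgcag
Dnajb6: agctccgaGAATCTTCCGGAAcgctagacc
Hsph1: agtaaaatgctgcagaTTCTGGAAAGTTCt
Hspe1: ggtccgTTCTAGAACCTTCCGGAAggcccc

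The AGGTCA half-site, the letters that REV-ERB receptors and other nuclear receptors read, was present in 14 of 73 chaperone genes with a window (19.2%) and in 18.1% of all such genes. It was present in 3 of the 11 genes that fell in DKO at CT16. The CACGTG E-box read by the clock's activators was present in 9 of 73 (12.3%) and in 8.09% of all. A window without a match says only that these letters are not in it.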

How the data were processed

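RNA-seq counts of 15 pooled SCN punch libraries were analysed. Build mm10, featureCounts, STAR and DESeq2 are named, without versions, per the submitters' processing notes; the authors deposited whole-number counts per gene, and the exonic length beside them, per the file headers, served for RPKM. Whether reads were counted by strand is not stated. From the counts, TMM-scaled CPM and edgeR 4.0.16 robust quasi-likelihood F tests (R 4.3.3) were computed on 16910 genes left by filterByExpr, with 4 group means over 15 libraries and 11 residual degrees of freedom; p-values were Benjamini-Hochberg adjusted over all genes tested and called under 0.05. All 87 genes passed that filter. Log2 differences are given ± the standard error, the absolute difference divided by the square root of F. The members, role groups and lists were chosen with earlier results of these data known. Genes named were those called in any comparison, the highest RPKM of each role, and Hspa1a, Hspa1b, Hspa8, Hsp90aa1, Hsp90ab1, Hspa5, Hsf1, Hsf2 and Hspg2; others in the text mark the ends of ranges or of the level rule, or hold a motif. Alternatives tried were other filters, limma 3.58.1 with voom, DESeq2 1.42.0, factors by upper quartile or RLE, subsets of groups or libraries, a replicate block and tissue scores as covariates; those for the 37 pathway genes were added after seeing the data. The code was tested on simulated data. Replicates were distinct libraries: chi-square per degree of freedom between pairs was 6.11 to 111. Shared stretches came from GENCODE M21 transcripts, and exon overlaps from the exon coordinates deposited beside the counts. Of 87 genes, 73 had a RefSeq window. Depth, at 32580803 to 68757624 counts per library, bounds the precision of genes with few counts, such as Hspb1 with 90 to 308 per library. Marker and member shares used unscaled totals.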

Additional observations from a re-analysis of the deposited data

Results flagged for a closer look

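Among 70 sets of one named gene in one CT16 group, 4 had a library far from the rest by Dixon's criterion, which chance gives in about 1 group in 20. Calr in control at CT16 had its lowest value in replicate 2, at 386.1 CPM, with the others at 431.5 to 441.2 CPM; that gap was 0.824 of the group's range. Stip1 was lowest in the same library, at 266.9 CPM with the others at 294.8 to 305.6 CPM (0.721 of the range). The same library was lowest for Cct5, at 165 CPM with the others at 181.8 to 187.5 CPM (0.747 of the range). It also had the highest summed myelin markers of the control libraries at CT16, at 9503 CPM. Hsf1 in DKO at CT16 had its lowest value in replicate 3, at 59.62 CPM with the others at 66.63 to 67.23 CPM (0.921 of the range). Without control CT16 replicate 2, 14 of the 87 genes fell in DKO at CT16, 10 of them among the 12.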

How the results depend on the processing

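Log2 differences of the named genes kept their direction wherever they passed, and RLE factors left every count of passing genes as it was. At CT16 between genotypes (12 passing), the count was 22 with DESeq2 (21 falls and 1 rise), 19 with tissue scores as covariates, 6 with only the groups compared, 6 without the 3 libraries that stand apart, and 5 to 17 with each library left out in turn. At CT4 (2 passing) it was 1 with upper quartile factors, 1 without a filter, 6 with limma voom (4 falls), 5 with only the groups compared (3 falls), 1 without the 3 libraries, and 0 to 3 with each left out. With time in DKO (2 passing) it was 8 with DESeq2, 8 with limma voom, 1 without a filter, 4 with a stricter filter, 0 with only the groups compared, 6 without the 3 libraries, and 1 to 6 with each left out. With time in control (19 passing) it was 33 with limma voom and 7 to 25 with each left out. For the interaction (0 passing) it was 3 with DESeq2 and 3 with limma voom, and 0 with each left out. The cause of these changes was not tested. Where libraries were left out, their smaller number and the values of those dropped were not told apart. Replicate numbers did not pair the libraries: of 19 pairs with the same number, 2 had a correlation of deviations over 0.1, and the range was -0.184 to 0.147. With the number as a replicate block, 0 genes passed at CT4, 7 at CT16, 2 with time in DKO, 7 with time in control and 0 in the interaction. The calls that most often missed the threshold, of 25 alternatives, were Chordc1 between genotypes at CT16 (18), Bag1 in DKO (16), Dnajc7 in control (16), Dnajb6 at CT4 (15), Hspb1 at CT16 (14), Cct7 at CT16 (13) and Cct4 in control (13). Of the 37 pathway genes, 8 fell between genotypes at CT16, against 5 with only the groups compared and 5 with the block; 4 rose with time in DKO, against 7 with limma voom, 0 with only the groups compared and 2 with the block or tissue scores. Comparisons that use CT4 rest on groups of 3 pools.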
